A study of Homo sapiens with 6 samples.

Results

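The 8 genes described here, ZFP36, ZFP36L1, ZFP36L2, BTG1, BTG2, BTG3, TOB1 and TOB2, encode adaptors that bring deadenylases to mRNAs. They were taken by name from a table of 61496 features, 3 from the ZFP36 family and 5 from the BTG and TOB family, and all 8 passed the filter on low counts together with 27514 features in all. The libraries were made from U251, an established human glioma cell line, and both groups shared the same line and culture medium. There were 3 control libraries of untreated cells and 3 libraries of cells exposed to sevoflurane (Sev), a volatile anesthetic gas, for 2 h. The labels give Sev concentrations from 1.7% to 5.1%, with 3.4% between them, and assign none of them to a single library. A figure legend of the publication names 5.1% for the Sev group that was sequenced. The comparison asks how the mRNAs of these genes changed with Sev exposure. The study's methods speak of independent experiments for its quantitative data without naming the sequencing, and the labels do not say that the libraries of a group came from separate cultures, so p-values measure the spread between libraries, which may be technical.

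Messenger RNAs carry a poly(A) tail, and in most mRNAs its shortening starts their decay. The main enzyme is the CCR4-NOT complex, built on the scaffold CNOT1 with the nucleases CNOT7 or CNOT8 and CNOT6 or CNOT6L. ZFP36 proteins hold CCCH zinc fingers that bind AU-rich elements in 3′ untranslated regions (UTRs), and they recruit CCR4-NOT to those mRNAs, many of which encode cytokines and growth factors. BTG and TOB proteins share a domain that binds CNOT7 and CNOT8, and they were first known for slowing proliferation. Several of the genes are themselves immediate early genes, with unstable mRNAs that change quickly after a stimulus.

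The ZFP36 proteins can bind their own family's mRNAs, so the 3′ UTRs were searched for the core of the ZFP36 binding site, written as DNA, TATTTAT. The longest 3′ UTR of each gene in GENCODE 29 on GRCh38 was read on the strand of the gene, and overlapping matches were counted. ZFP36, ZFP36L1 and ZFP36L2 each held 3 matches, in 3′ UTRs of 713, 2828 and 1917 bases. Any match was present in 31.2% of 19046 genes, and at least 3 matches were present in 1.25%, 8.51% and 4.86% of genes whose 3′ UTR was 0.8 to 1.25 times as long as that of ZFP36, ZFP36L1 and ZFP36L2. BTG3 held 2 matches, BTG1, BTG2 and TOB2 held 1 each, and TOB1 held none. At least 2 matches were present in 2.36% of genes with a 3′ UTR of like length to BTG3. At least 1 was present in 62.3%, 44.5% and 52.9% of genes of like length to BTG1, BTG2 and TOB2. For TOB1 that share was 20.2%. The sites of the ZFP36 family and that of BTG2, the gene with the largest change, are shown 5′ to 3′ on the strand of the gene, with the match in capitals and 10 bases on each side:
ZFP36 site 1, chr19:39409182-39409208, plus strand: atgggcccttTATTTATgacgacttta
ZFP36 site 2, chr19:39409197-39409223, plus strand: atgacgacttTATTTATtctaatatga
ZFP36 site 3, chr19:39409222-39409248, plus strand: gattttatagTATTTATatatattggg
ZFP36L1 site 1, chr14:68788337-68788363, minus strand: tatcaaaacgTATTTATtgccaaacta
ZFP36L1 site 2, chr14:68788295-68788321, minus strand: attttgttcaTATTTATcgggatgaca
ZFP36L1 site 3, chr14:68788078-68788104, minus strand: actgttggatTATTTATtttagaaatt
ZFP36L2 site 1, chr2:43223449-43223475, minus strand: ctatttaactTATTTATtatcttgtga
ZFP36L2 site 2, chr2:43223401-43223427, minus strand: gttcatactgTATTTATcaagtatgat
ZFP36L2 site 3, chr2:43223213-43223239, minus strand: ttgtatgtaaTATTTATttcattaatt
BTG2 site 1, chr1:203307529-203307555, plus strand: aatgaagagcTATTTATatatattatt
Neighbouring windows of ZFP36 overlap. BTG1 also held 4 copies of the Pumilio element TGTANATA, the site of another family of decay adaptors, and the other 7 genes held none. At least 4 copies were present in 2.51% of 1953 genes with a 3′ UTR of like length. A match is a description of the letters and was not tested as a binding site.

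The libraries held 38624292 to 46318311 counts. On the first principal component, which held 69% of the variance, the groups were separate, and on the second, with 10%, Sev replicate 2 lay at 61.5 against −9.25 and −52.4 for Sev replicates 1 and 3. Of the 8 glioma markers, VIM, NES, GFAP, SOX2, EGFR, CD44 and S100B were present at 4.26 FPKM (counts scaled by gene length and library total) or more in every library, and CHI3L1 was near absent with at most 14 counts. SOX2 and S100B were lower in Sev (edgeR adjusted p = 0.000367 and 0.00215), and CD44 and EGFR were higher (adjusted p = 0.000174 and 0.0451). Of the 10 markers of other cell types, the immune marker PTPRC had at most 12 counts and the epithelial markers EPCAM and KRT5 at most 5, while the immune marker CD14 rose from 52 to 68 counts in control to 152 to 221 in Sev and the endothelial marker PECAM1 from 21 to 39 counts to 46 to 55. The other endothelial marker, CDH5, had 135 to 220 counts in control and 132 to 156 in Sev and was not called (log2 fold change −0.077, edgeR adjusted p = 0.747), nor were CD68 and the neuronal markers RBFOX3, SYP and SNAP25 (adjusted p = 0.111 to 0.522). The part of these markers in the results was not tested.

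Levels of single genes are given as CPM, counts scaled to a common library size after TMM normalization, and differences as log2 fold changes of Sev over control. Of the 8 mRNAs, ZFP36L2 rose, ZFP36L1 and BTG2 fell, and the other 5 did not pass the test at an adjusted p of 0.05. BTG2 fell the most, 3.88-fold, while ZFP36L1 and ZFP36L2 moved less than 2-fold in opposite directions. TOB1 and TOB2 were lower than every control in Sev replicates 1 and 3 only. Among all tested features 22.1% were called higher and 21.5% lower, against 1 and 2 of the 8 genes. With a log2 fold change beyond 1 in either direction and an unadjusted p under 0.05 as the threshold, none of the 8 genes was higher and 1, BTG2, was lower, against 11.4% and 12.0% of all tested features. The control and Sev ranges did not overlap for 1 gene that was higher and 2 that were lower, against 28.3% and 28.2% of features. With 8 genes, these counts were near the background shares. With the same fit, all tested features had a median log2 fold change of −0.0056.

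**Figure D1:**
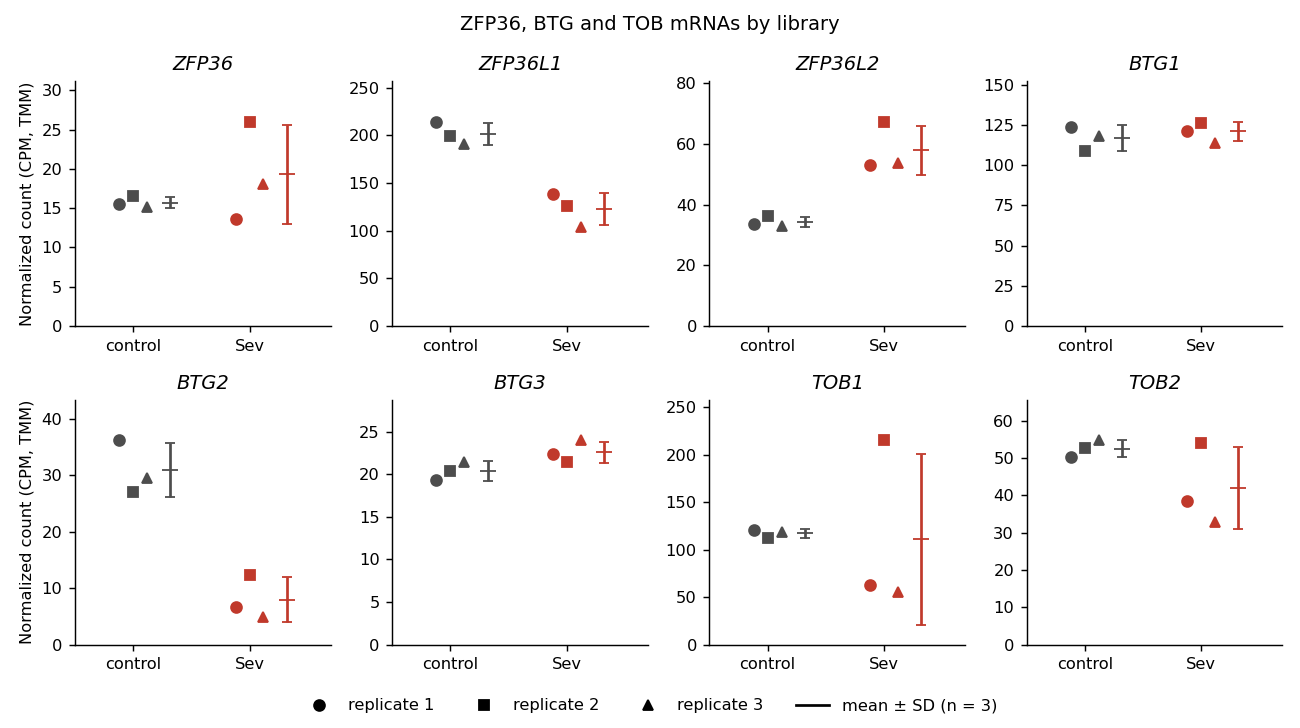
Normalized count of each of the 8 mRNAs in each library, in CPM after TMM normalization, with the mean and SD of 3 libraries beside the points and every vertical axis starting at 0. ZFP36L2 was higher in all 3 Sev libraries than in any control, ZFP36L1 and BTG2 were lower in all 3, and Sev replicate 2 of TOB1 lay at 215 CPM, above the other libraries.

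ZFP36, also known as tristetraprolin, is the founding member of its family and is best known for the decay of TNF mRNA. Its gene (ENSG00000128016) lies at chr19:39406813-39409412 on the plus strand in GENCODE 29. The control libraries held 15.5, 16.5 and 15.1 CPM, and the Sev libraries 13.6, 26 and 18.1 CPM. Sev replicate 1 lay under the controls and replicates 2 and 3 above them, so the groups overlapped. The means were 15.7 ± 0.722 and 19.3 ± 6.28 CPM (SD, n = 3 each), with a log2 fold change of 0.30 (95% interval −0.20 to 0.80, edgeR adjusted p = 0.299). Without Sev replicate 2 the log2 fold change was 0.023 (adjusted p = 0.917), the lowest of the 15 alternatives, and the level of ZFP36 mRNA was not shown to differ.

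ZFP36L1 (ENSG00000185650, chr14:68787660-68796253, minus strand) encodes the AU-rich element binding protein BRF1 and was the most abundant member of its family in both groups. Control libraries held 214, 199 and 191 CPM and Sev libraries 138, 126 and 104 CPM. All 3 Sev libraries lay below the lowest control. The means were 201 ± 11.6 CPM in control and 123 ± 16.9 CPM in Sev (SD, n = 3 each), 1.64-fold lower in Sev. The log2 fold change was −0.71 with an SE of 0.11 (95% interval −0.97 to −0.45, edgeR adjusted p = 0.00195). In each library the mRNA of many cells was pooled, so fewer cells with the mRNA and less mRNA per cell cannot be told apart, here and below.

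ZFP36L2 (ENSG00000152518, chr2:43222402-43226609, minus strand) encodes the paralog BRF2, which binds the same kind of site. It had 33.7, 36.2 and 33.1 CPM in control and 53.1, 67.3 and 53.7 CPM in Sev. Every Sev library was above every control, with replicate 2 the highest. The mean rose 1.69-fold, from 34.4 ± 1.66 to 58 ± 8.06 CPM (SD, n = 3 each), with a log2 fold change of 0.76 and an SE of 0.11 (95% interval 0.49 to 1.02, edgeR adjusted p = 0.00164). The intervals of ZFP36L1 and ZFP36L2 lay on opposite sides of 0.

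The family was also compared per length. FPKM values allow levels to be compared between genes. The FPKM values carry no TMM scaling, so their ratios between groups run lower than those of CPM. In control, ZFP36L1 stood at 33.1 ± 2.49 FPKM, ZFP36L2 at 7.9 ± 0.296 and ZFP36 at 6.73 ± 0.261 (SD, n = 3 each). In Sev they stood at 18.3 ± 2.25, 12.1 ± 1.31 and 7.46 ± 2.26 FPKM. The order of ZFP36L1 above ZFP36L2 held in all 3 libraries of both groups, with a smaller gap in Sev. The share of ZFP36L1 in the summed FPKM of the family was 69.3 ± 1.53% in control and 48.5 ± 6.35% in Sev, and the ranges of 68 to 71% and 43.7 to 55.7% did not overlap. The share of ZFP36L2 was 16.6 ± 0.874% in control and 31.9 ± 1.69% in Sev, and that of ZFP36 was 14.1 ± 0.656% and 19.6 ± 4.78%. The sum itself was 45.3 to 50.7 FPKM in control and 34.9 to 41.5 FPKM in Sev. These shares rest on the same libraries as the fold changes and are given as a description.

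BTG2 (ENSG00000159388, chr1:203305491-203309602, plus strand) is an early response gene that p53 is known to activate, and its protein restrains the cell cycle. Control libraries held 36.2, 27 and 29.5 CPM and Sev libraries 6.64, 12.4 and 4.87 CPM. The highest Sev library, replicate 2, was below the lowest control. The counts behind these values were 1071 to 1533 in control and 193 to 466 in Sev. The mean fell 3.88-fold, from 30.9 ± 4.77 to 7.97 ± 3.94 CPM (SD, n = 3 each). The log2 fold change was −1.96 with an SE of 0.32 (95% interval −2.69 to −1.22, edgeR adjusted p = 0.00228). Without Sev replicate 2 it was −2.42 (adjusted p = 0.000474). Per length, BTG2 went from 9.54 ± 1.68 to 2.2 ± 1.01 FPKM, from the fifth of the 8 genes in control to the last in Sev, under TOB2 in all 3 Sev libraries.

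BTG1 (ENSG00000133639, chr12:92140278-92145897, minus strand) is the nearest relative of BTG2. It had 124, 109 and 118 CPM in control and 121, 126 and 114 CPM in Sev. The groups lay over each other, at 117 ± 7.95 and 121 ± 5.93 CPM (SD, n = 3 each). The log2 fold change was 0.043 (95% interval −0.15 to 0.23, edgeR adjusted p = 0.704), and scaling by library size alone turned its sign, to −0.10. A drop of the size seen for BTG2 is outside this interval. BTG1 shares 2637 bases on the same strand with the noncoding gene LINC01619, which rose from 5.59 ± 0.312 to 18.8 ± 1.81 CPM (log2 fold change 1.75, SE 0.13, edgeR adjusted p = 0.000113). How the counting divided reads between them is not given in the sources used here, so both values are uncertain to that extent.

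BTG3 (ENSG00000154640, chr21:17593653-17612947, minus strand) encodes a further member that binds the same nucleases. Its levels were 19.3, 20.4 and 21.5 CPM in control and 22.4, 21.5 and 24 CPM in Sev. The groups met at 21.5 CPM. The log2 fold change was 0.15 (95% interval −0.08 to 0.38, edgeR adjusted p = 0.253).

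TOB1 (ENSG00000141232, chr17:50862223-50867978, minus strand) encodes a protein that links CCR4-NOT to the poly(A) binding protein PABPC1. Control libraries held 121, 112 and 118 CPM, and Sev libraries held 62.5, 215 and 55.8 CPM. Sev replicates 1 and 3 were below every control and replicate 2 was above every control. The mean of 111 ± 90.1 CPM in Sev (SD, n = 3) therefore describes no single library, against 117 ± 4.58 CPM in control. With all 6 libraries the log2 fold change was −0.072 (95% interval −1.15 to 1.01, edgeR adjusted p = 0.914). Without Sev replicate 2 it was −0.98 (95% interval −1.19 to −0.77, adjusted p = 0.000629), without Sev replicate 1 it was 0.21 (adjusted p = 0.753) and without Sev replicate 3 it was 0.25 (adjusted p = 0.674). The direction of TOB1 thus rests on which Sev library is left out. The counts were high, 8084 in Sev replicate 2 against 2354 and 2212 in replicates 1 and 3, so the gap is larger than counting error.

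TOB2 (ENSG00000183864, chr22:41433492-41447023, minus strand) is the paralog of TOB1. Its levels were 50.3, 52.8 and 54.8 CPM in control and 38.4, 54.2 and 32.9 CPM in Sev. Here too replicates 1 and 3 lay below the controls, while replicate 2 lay among them. The log2 fold change was −0.33 (95% interval −0.73 to 0.067, edgeR adjusted p = 0.156). Without Sev replicate 2 it was −0.56 (95% interval −0.80 to −0.31, adjusted p = 0.00675), and with scaling by library size alone it was −0.48 (adjusted p = 0.0343).

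**Figure D2:**
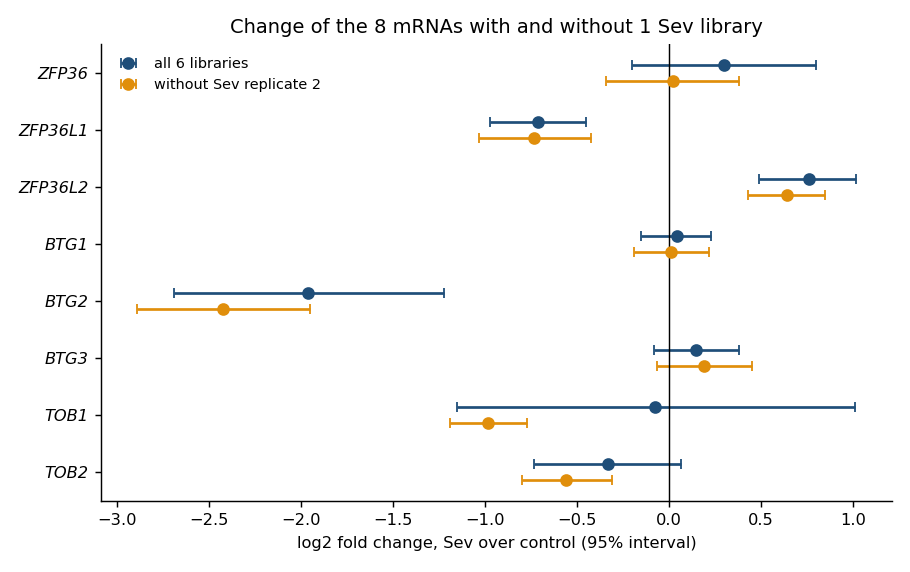
Log2 fold change of each mRNA in Sev over control, with 95% intervals, from the fit of all 6 libraries and from the fit without Sev replicate 2. The intervals of ZFP36L1, ZFP36L2 and BTG2 stay on their side of 0 in both fits, and those of TOB1 and TOB2 leave 0 only without that library.

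The spread within the Sev group was wide for several of these genes. Sev replicate 2 was the highest Sev library for 6 of the 8 mRNAs, all but ZFP36L1 and BTG3, against 43.1% of the 10855 features with a mean of at least 10 CPM. Its level was 3.64 times the mean of Sev replicates 1 and 3 for TOB1, 2.16 times for BTG2, 1.64 times for ZFP36 and 1.52 times for TOB2. The remaining 4 genes had ratios of 0.926 to 1.26, and the median over the 10855 features was 1.01. The highest over the lowest Sev library came to 3.85 for TOB1, against a median of 1.18 over the same features, while its control libraries differed by 1.08-fold. The labels give neither RNA quality nor a gas concentration for single libraries, and their part in this spread was not tested.

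Per length, the order of the BTG and TOB mRNAs also differed between the groups. In control, TOB1 at 39.4 ± 2.3 FPKM stood first of all 8 genes, then ZFP36L1 and BTG1 at 20.7 ± 1.82 FPKM, and these 3 did not overlap. TOB2 at 10.3 ± 0.34, BTG2, ZFP36L2 and BTG3 at 7.51 ± 0.35 FPKM followed, each overlapping its neighbour, and ZFP36 was last in all 3 libraries. In Sev, TOB1 at 33.4 ± 26, BTG1 at 19.3 ± 0.31 and ZFP36L1 overlapped, and TOB1 was above BTG1 in 1 of 3 libraries. ZFP36L2 stood alone in the fourth place, BTG3 at 7.56 ± 0.672, ZFP36 and TOB2 at 7.37 ± 1.69 FPKM overlapped, and BTG2 was last. BTG2 made up 10.9 ± 1.25% of the summed FPKM of the BTG and TOB family in control and 3.11 ± 0.369% in Sev. TOB1 made up 45.1 ± 0.3% in control and 43.5 ± 15.9% in Sev, with 61.9% in Sev replicate 2.

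**Figure D3:**
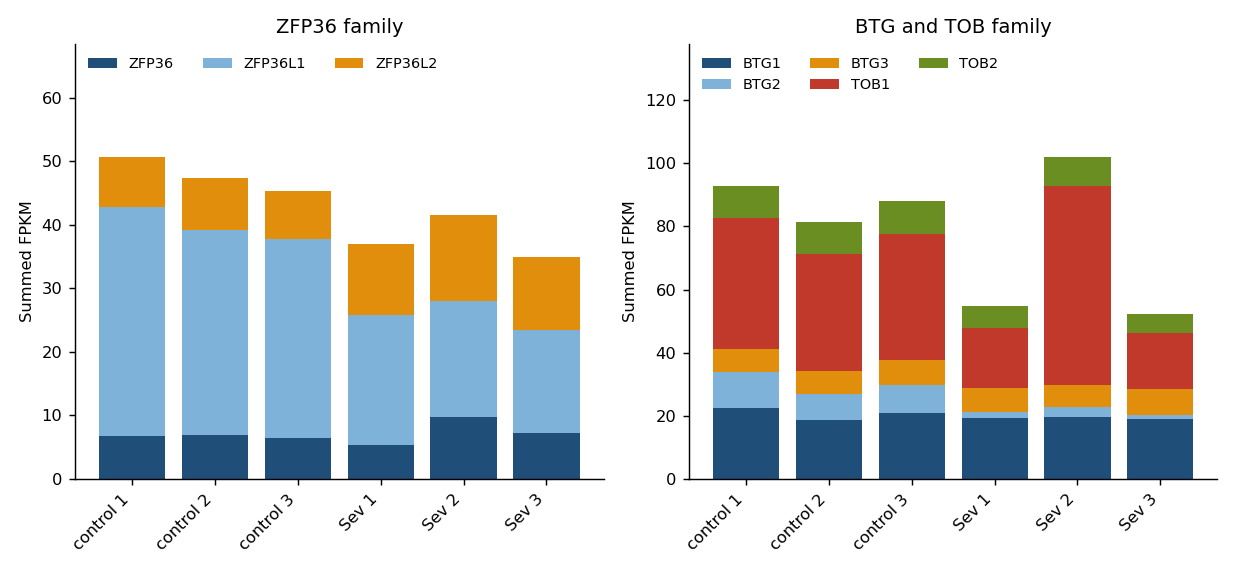
FPKM of the family members stacked for each library, ZFP36 family on the left and BTG and TOB family on the right, with axes starting at 0. In the left panel ZFP36L1 takes a smaller part of the bars in Sev, and in the right panel the bar of Sev replicate 2 reaches 102 FPKM through TOB1.

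Neighbouring and copied genes were read beside the members. Of the 10 listed, 5 were tested, and 2 were lower and 3 did not pass. BTG3-AS1, which overlaps BTG3 on the opposite strand, went from 1.74 ± 0.243 to 1.04 ± 0.0683 CPM (log2 fold change −0.74, SE 0.21, edgeR adjusted p = 0.0243). TOB2P1, a pseudogene of TOB2, went from 2.33 ± 0.24 to 1.43 ± 0.121 CPM (log2 fold change −0.71, SE 0.19, edgeR adjusted p = 0.0189). Both had few counts, and their calls held in only 2 and 4 of the 6 fits that leave out 1 library: BTG3-AS1 lost its call without control replicate 1 or 3 or Sev replicate 1 or 3, and TOB2P1 without control replicate 2 or Sev replicate 1. TOB1-AS1, LINC01126 beside ZFP36L2 and BTG1-DT had log2 fold changes of −0.78, 0.49 and 0.043 (adjusted p = 0.0645, 0.18 and 0.922). The library kit was strand-specific per the labels, but the strand setting of the counting is not given in the sources used here, so sense and antisense reads may not have been kept apart.

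The promoter windows of the members, 250 bases before to 50 after the start in RefSeq on GRCh38.p14, were searched on both strands for 8 motifs. Windows were held for 7 of the 8 genes. A second window of ZFP36L1, at chr14:68793367-68793666, held the cAMP response element TGACGTCA, which 1.85% of all 35116 windows hold. The BTG2 window at chr1:203305269-203305568 held 3 GC boxes (GGGCGG, any in 45% of windows) and a CCAAT box (any in 34.6%). GC boxes also lay in windows of ZFP36, BTG1, BTG3, TOB1 and TOB2, and CCAAT boxes in windows of ZFP36L1, BTG1 and TOB1. BTG1 held a TATA box (TATAAA, in 11.5%) and the forkhead motif GTAAACA (in 3.42%). The E-box CACGTG, the CArG box and TGATGNAA had no match in the members' windows, which says only that these letters are not there.

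The genes whose profile over the 6 libraries was most like that of the members with the smallest p in each direction were found by the root mean square difference of centred log2 CPM, among 10341 genes of at least 10 CPM. For ZFP36L2 these were TET3 (difference 0.049), SAFB (0.051) and CPEB4 (0.052). For ZFP36L1 they were EXTL2 (0.020), GATD1 (0.053) and MAT2B (0.054). Their own log2 fold changes were 0.77, 0.68 and 0.79, and −0.68, −0.70 and −0.76. CPEB4 binds U-rich elements of 3′ UTRs and sets poly(A) tail length.

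The CCR4-NOT complex, which both families recruit, held few genes that passed the test. Of its 12 genes, all tested, 1 was called higher, 1 lower and 10 neither, with a median log2 fold change of 0.086. CNOT1, the scaffold to which the ZFP36 proteins bind, stood at 624 ± 14.7 CPM in control and 646 ± 11.9 CPM in Sev (log2 fold change 0.050, SE 0.072, edgeR adjusted p = 0.602). CNOT7, a nuclease that BTG and TOB proteins bind, had 98.3, 117 and 111 CPM in control and 165, 140 and 142 CPM in Sev. All 3 Sev libraries were above the controls, and it rose by a log2 fold change of 0.45 (SE 0.10, edgeR adjusted p = 0.00924). Its paralog CNOT8 had 35.2 ± 10.3 and 43.1 ± 13.5 CPM (log2 fold change 0.29, adjusted p = 0.428). CNOT6L, the gene called lower, had a log2 fold change of −0.57 (SE 0.17, edgeR adjusted p = 0.0279), and kept its call in 1 of the 6 fits that leave out 1 library, that without Sev replicate 3. At 8.33% in each direction, the calls were below the 22.1% higher and 21.5% lower of all tested features. This gap rests on 12 genes and was not tested.

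Of 12 other deadenylases, their relatives and poly(A) binding factors, 4 (33.3%) were higher, 4 (33.3%) lower and 4 neither. Their median log2 fold change was 0.060. Among all tested features 22.1% were higher and 21.5% lower, and among those of at least 10 CPM 27.1% and 21.8%. With so few genes in a list, gaps to these shares were not tested, here and below. NOCT, nocturnin, is a rhythmic gene related in sequence to the CCR4 nucleases. It had 20.4, 24.7 and 22.3 CPM in control and 71, 97.1 and 65.3 CPM in Sev. Its groups were far apart, with a log2 fold change of 1.79 (SE 0.16, edgeR adjusted p = 0.000217). PAN2, the nuclease of the PAN2-PAN3 deadenylase, fell from 34.2 ± 5.12 to 18.3 ± 2.2 CPM (log2 fold change −0.90, adjusted p = 0.00191). Its partner PAN3 rose from 50.8 ± 2.33 to 67.4 ± 2.11 CPM (log2 fold change 0.41, adjusted p = 0.00468) and was chosen after its value was seen. PAIP2B, an inhibitor of the poly(A) binding protein, and ANGEL1, a relative of the CCR4 nucleases, fell by 1.31 and 0.95 on the log2 scale (adjusted p = 0.00304 and 0.000937). The remaining genes called higher, PAIP1 and PDE12, kept their call only without control replicate 2 and only without Sev replicate 2 among the fits that leave out 1 library, so that 2 genes of this list stayed higher without control replicate 1 or 3 or Sev replicate 1 or 3. ANGEL2, the fourth gene called lower, lost its call in each of the 6 fits, which left 3 genes lower. PAIP1, PDE12 and ANGEL2 were named after their values were seen.

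Decapping and 5′ to 3′ decay, the step after deadenylation, held 7 higher (35%), 4 lower (20%) and 9 other genes of 20. The median was 0.23, and the shares among features of at least 10 CPM were 27.1% higher and 21.8% lower. LSM1 and LSM7, subunits of the ring that binds shortened tails, rose by log2 fold changes of 0.72 (edgeR adjusted p = 0.0179) and 0.84 (adjusted p = 0.00295), and LSM1 lost its call without control replicate 3 or Sev replicate 1. DCP1B, a cofactor of the decapping enzyme, fell from 7.85 ± 0.264 to 3.07 ± 0.753 CPM (log2 fold change −1.35, SE 0.19, adjusted p = 0.00135). DCP2, the enzyme itself, had 196, 67.9 and 74.3 CPM in control and 72.9, 31.6 and 32.4 CPM in Sev. The groups overlapped at the first Sev library, and it did not pass the test (log2 fold change −1.31, edgeR adjusted p = 0.0571). With an unadjusted edgeR p of 0.0259 it was past the threshold of the study's methods. DCP2 meets none of the rules for naming genes given below. The number of genes called higher in this list dropped to 3 without control replicate 3.

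The exosome and 3′ to 5′ decay list held 7 higher (38.9%), 1 lower (5.56%) and 10 other genes of 18. The median was 0.061, and the shares among features of at least 10 CPM were 27.1% higher and 21.8% lower. The exosome subunits EXOSC5, EXOSC6 and EXOSC9 rose by log2 fold changes of 0.88, 0.64 and 0.66 (edgeR adjusted p = 0.000909, 0.00538 and 0.00267). PELO, which rescues stalled ribosomes, rose by 0.73 (adjusted p = 0.00521). The gene called lower was SKIC3, a scaffold of the Ski complex, named after its value was seen, and its call was lost without control replicate 3 or Sev replicate 1.

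Of 21 other factors that bind mRNAs by sequence and set their stability, 9 (42.9%) were higher, 7 (33.3%) lower and 5 neither. The median was 0.18, and the shares among features of at least 10 CPM were 27.1% higher and 21.8% lower. ZC3H12A, Regnase-1, a nuclease that cuts inflammatory mRNAs such as that of IL6, had 22.3, 20.7 and 20.7 CPM in control and 76.1, 121 and 58.3 CPM in Sev. Every Sev library was well above the controls, with replicate 2 again the highest (log2 fold change 2.00, SE 0.24, edgeR adjusted p = 0.000674). ARID5A, which protects IL6 mRNA, rose from 4.48 ± 0.782 to 12 ± 1.84 CPM (log2 fold change 1.42, adjusted p = 0.000849). SAMD4A, the Smaug protein that recruits CCR4-NOT, and KHSRP, an AU-rich element decay factor, rose by 1.05 and 0.87 (adjusted p = 0.00022 and 0.000486). TIA1, which silences AU-rich mRNAs, and N4BP1 fell by 0.65 and 0.60 (adjusted p = 0.00128 and 0.00207).

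Over these 5 lists, 28 of 83 genes (33.7%) were higher, 17 (20.5%) lower and 38 neither, with a median log2 fold change of 0.13. Of the 10855 features of at least 10 CPM, 27.1% were higher and 21.8% lower, with a median of 0.049. With scaling by library size alone, which moved the median of all tested features from −0.0056 to −0.15, the split was 22 higher and 21 lower with a median of −0.0065, and over all tested features the calls moved from 6094 higher and 5920 lower to 4665 and 7502. Under that scaling 2 rather than 4 of the other deadenylases, their relatives and poly(A) binding factors were higher. Of the CCR4-NOT genes 2 rather than 1 were lower, and of the exosome list 3 rather than 1. With both scalings the median of these lists lay above that of all tested features, which include features of low counts. For features of at least 10 CPM the median is given only with TMM normalization, 0.049.

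**Figure D4:**
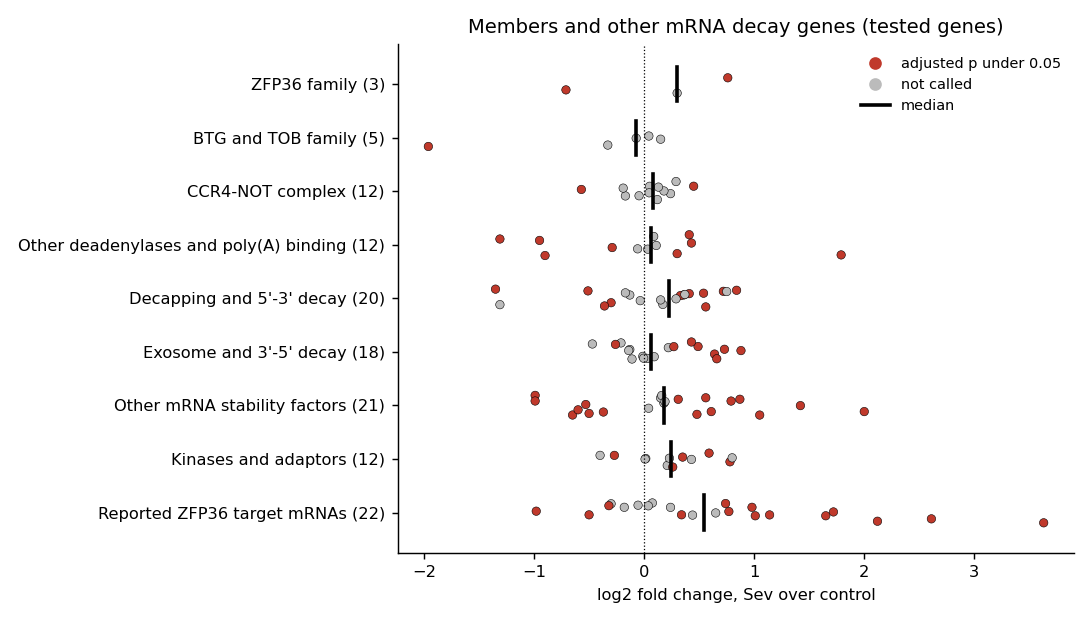
Log2 fold change in Sev over control of each tested gene of the ZFP36 and the BTG and TOB family, 5 lists of decay factors, the kinases and adaptors of the members and reported ZFP36 target mRNAs, with the number of tested genes in parentheses, a bar at each list's median and genes with an adjusted p under 0.05 in color. CCR4-NOT genes stay between −0.57 and 0.45, and the reported target mRNAs reach 3.63.

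Reported targets of ZFP36 proteins were described last. The list was written from general knowledge with earlier results of these data known, and 22 of its 26 mRNAs were tested. In Sev 11 (50%) were higher, 3 (13.6%) lower and 8 neither, with a median log2 fold change of 0.54. Of all tested features 22.1% were higher and 21.5% lower, with a median of −0.0056, and of those of at least 10 CPM 27.1% and 21.8%, with a median of 0.049. The cytokine mRNAs differed among themselves. CXCL8, a chemokine, had 1.8, 3.28 and 2.08 CPM in control and 32.5, 29.6 and 26.3 CPM in Sev, and all Sev libraries were far above the controls (log2 fold change 3.63, SE 0.23, edgeR adjusted p = 7.6e-05). CXCL2 and CXCL3 rose by 1.72 and 2.61 on the log2 scale (adjusted p = 0.000146 and 0.000372). IL6 went from 12.6 ± 1.25 to 16 ± 0.393 CPM (log2 fold change 0.34, adjusted p = 0.0463), a call lost in 5 of the 6 fits that leave out 1 library, all but that without control replicate 1. PTGS2, the inducible cyclooxygenase, did not pass the test (log2 fold change −0.30, adjusted p = 0.166). TNF had 0 counts in 5 libraries and 4 in Sev replicate 2, and was not tested.

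Among the targets that act in growth, MYC had 38.3, 21.2 and 43.9 CPM in control and 134, 136 and 53.1 CPM in Sev (log2 fold change 1.65, SE 0.39, edgeR adjusted p = 0.011). Every Sev library was above the controls, with a wide spread. CCND1, cyclin D1, rose from 396 ± 47.2 to 781 ± 38.6 CPM (log2 fold change 0.98, adjusted p = 0.000401), and PIM1, a kinase, and PLAUR, the urokinase receptor, rose by 1.01 and 0.77 (adjusted p = 0.00264 and 0.000564). FOS, the AP-1 subunit, fell from 564 ± 38.1 to 400 ± 49.2 CPM (log2 fold change −0.50, SE 0.11, adjusted p = 0.00789). The others called lower were VEGFA, at −0.98 (adjusted p = 0.00428), and NFKBIZ, at −0.32 (adjusted p = 0.0396), whose call was lost in each of the 6 fits that leave out 1 library. The number of TATTTAT matches differed among the targets that rose, with 8 in CXCL2, 4 in CXCL8, 1 in CCND1 and 0 in MYC and PLAUR, and FOS, which fell, held 2. RNA levels alone do not separate synthesis from decay.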

How the data were processed

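RNA was sequenced from 6 U251 libraries after ribosomal RNA depletion, 3 control and 3 Sev, grouped by their labels. The authors deposited 1 table of raw counts per gene and 1 table of FPKM. The submitters' processing notes name bcl2fastq 2.19, featureCounts and hg18, with no role. The aligner is not given in the sources used here. Because the files hold no coordinates, positions are those of GENCODE 29 on GRCh38, which holds 58457 of the 60564 Ensembl identifiers, and 60295 identifiers have a symbol. Counts divided by the library total and by FPKM varied between libraries by a median of 0.325%, so FPKM are counts scaled by length.

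Counts were tested with edgeR 4.0.16 in R 4.3.3 (filterByExpr, TMM, glmQLFit and glmQLFTest, 2 groups, no covariate), with Benjamini-Hochberg adjustment over 27514 features. A call is an adjusted p under 0.05. SE was derived from the log2 fold change and its F statistic. An exact permutation test of 3 against 3 libraries cannot go below 0.1. The fit was tested on simulated data. Depth was 38624292 to 46318311 counts a library.

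The members and lists were chosen with earlier results of these data known. Named genes are the 8 members, up to 6 genes a list with a call and a log2 fold change of at least 0.58 in size, 9 genes of interest (TNF, IL6, CXCL8, PTGS2, FOS, MYC, CNOT1, CNOT7, CNOT8), tested neighbours, and the 3 nearest profiles of a member called in each direction. Others are named where a count is 5 or fewer. Alternatives were DESeq2 size factors, library size only, DESeq2 1.42.0, no filter, at least 10 counts in every library, a replicate block, each library left out, and limma 3.58.1 on deposited FPKM with a minimum of 0.5 in 3 libraries and a pseudocount of 1 or 0.1 before the log2, with the minimum also dropped at a pseudocount of 1. The same threshold as in the study's methods, a log2 fold change beyond 1 with an unadjusted p under 0.05, was counted too. The result for 1 gene of the kinase and adaptor list is not reported here.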

Additional observations from a re-analysis of the deposited data

How the results depend on the processing

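Over the 15 alternatives, ZFP36L1 kept its call with log2 fold changes of −0.86 to −0.61, ZFP36L2 with 0.55 to 0.82 and BTG2 with −2.42 to −1.70. Without Sev replicate 2, TOB1 (−0.98) and TOB2 (−0.56) joined the genes called lower, so this count ranged from 2 to 4 with 1 library left out, and that of genes called higher stayed at 1. Leaving out Sev replicate 1 or 3 reversed TOB1 to 0.21 or 0.25. BTG1, never called, was reversed to −0.10 with library size only, to −0.015 without control replicate 2 (up to 0.081 with another library left out), to −0.095 with limma on log2(FPKM + 1), with or without the filter, and to −0.099 with log2(FPKM + 0.1). TOB2 also passed with library size only (−0.48), log2(FPKM + 1) (−0.45) and log2(FPKM + 0.1) (−0.50). The decay genes called higher ranged from 20 to 28 and those called lower from 12 to 16 with 1 library left out, and the ZFP36 targets called higher from 9 to 11. With limma on log2(FPKM + 1) and no filter, 17 decay genes and 7 targets were higher. Library size only gave 22 decay genes higher and 21 lower. The causes were not tested. With the replicate number as a block, 1 member was higher and 2 lower, 24 decay genes were higher and 15 lower, and 10 targets were higher and 2 lower, so the replicate block changed no member's call. The groups share replicate numbers, but same-numbered libraries deviated with correlations of −0.00723, 0.00351 and 0.027, and not every library correlated best with its own number, so the numbers were not taken as pairs.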

Other observations

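The kinases and adaptors that act on these proteins were measured as well. Of 12 genes, all tested, 4 (33.3%) were higher in Sev, with a median log2 fold change of 0.25. Among all tested features 22.1% were higher, and among those of at least 10 CPM 27.1%, with medians of −0.0056 and 0.049. With 12 genes, the count was near these background shares. MAPKAPK2, the kinase that phosphorylates ZFP36 and so lets 14-3-3 proteins bind it, rose from 72.2 ± 1.63 to 124 ± 9.74 CPM (SD, n = 3 each, log2 fold change 0.78, SE 0.084, edgeR adjusted p = 0.000421). PRMT1, an arginine methyltransferase that binds BTG1 and BTG2, rose by a log2 fold change of 0.59 (SE 0.094, edgeR adjusted p = 0.00201). MAPKAPK3, a close relative of MAPKAPK2, and the 14-3-3 gene YWHAH were also called higher, and both were chosen after their values were seen. YWHAH lost its call without each control library in turn and without Sev replicate 1. With scaling by library size alone, MAPKAPK3 and YWHAH were not called (adjusted p = 0.103 and 0.221), so that 2 genes of the list were higher, and its median was 0.11.

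The features in which Sev replicate 2 exceeded the mean of Sev replicates 1 and 3 at least as much as for TOB1 were listed after the values were seen. There were 10 of 10855 (0.0921%), TOB1 included. The highest ratio, 34.8, was that of RN7SL4P, a copy of the signal recognition particle RNA, which also differed among controls, at 2120, 2460 and 53.1 CPM. TGOLN2, a trans-Golgi membrane protein, had 202, 214 and 220 CPM in control and 36.5, 270.0 and 36 CPM in Sev. KIAA2026 had 23.6, 31.1 and 25 CPM in control and 16.8, 65.2 and 18.8 CPM in Sev. As for TOB1, Sev replicates 1 and 3 of both genes lay below every control and replicate 2 above. The part of the library in this pattern was not tested.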
